A study of Homo sapiens with 40 samples.

Results

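Cadherins and non-clustered protocadherins were followed through a set of H3K27me3 peak lists from KMS-11 cells, a human multiple myeloma line with the t(4;14) translocation, which overexpresses the histone methyltransferase gene NSD2. Members were the autosomal protein-coding genes whose symbol is CDH or PCDH followed only by digits. The rule found 33 members among 19451 protein-coding genes, 23 cadherins and 10 protocadherins. PCDH19 matches the symbol rule but lies on the X chromosome and was left out.

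Cadherins are calcium-dependent adhesion proteins of the cell surface. Classical cadherins of type I and type II hold neighbouring cells together through their extracellular repeats and are tied to actin by catenins at their cytoplasmic tails. Protocadherins are related proteins with different cytoplasmic tails, many of them expressed in neurons. CDH2 (N-cadherin) is the member best known in t(4;14) myeloma, where plasma cells can use it to hold on to their surroundings. H3K27me3 is laid down by Polycomb repressive complex 2 and marks genes that are kept silent, often as broad domains, whereas NSD2 places H3K36me2, which hinders methylation of the same histone tail by Polycomb.

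The libraries were made by CUT&Tag, in which an antibody directs a transposase to cut DNA around the modification. There were 30 H3K27me3 libraries in 15 groups of 2. In the knockout (KO) experiment, wild-type parental KMS-11 cells were set beside NSD2 KO clones 3 and 12, which are 1 clone each. In the degradation experiment, NSD2-dTAG clones 8 and 11, again 1 clone each, and the parental line they were engineered from were sampled at days 0, 7, 14 and 21 of dTAGV-1, a compound that sends dTAG-fused protein for degradation. The stated dose, 100 nM, is for the NSD2-dTAG cells, and none is stated for the parental line, which carries no tagged NSD2. The replicates of the clones are called biological by the series text, and nothing says that the parental replicates were separate cultures, so p-values capture only the variation from library to library, which may be technical. A further 2 IgG, 4 H3K27ac and 4 H3K4me3 libraries were not analysed here. Peak lists do not measure NSD2 protein, so libraries are called NSD2-lost (KO clones, and dTAG clones at days 7 to 21, 16 libraries) or NSD2-present (the other 14) by their labels.

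The value given for a gene is its covered percent, the percent of its annotated length inside merged H3K27me3 peaks of a library. Called length, the summed length of all peaks, was 118.8 Mb ± 24.2 in the NSD2-lost and 62.2 Mb ± 18.9 in the NSD2-present libraries (SD, n = 16 and 14). Depth was not listed, and the background pileup solved from the peaks (fragments per position, a stand-in for depth) was 2.29 ± 0.368 and 1.79 ± 0.677. Both means were higher in the NSD2-lost libraries. In the dTAG clones, pileup was 1.44 ± 0.601 at day 0 and 2.33 ± 0.521 at day 21 (SD, n = 4). Called length there went from 50.7 to 120.3 Mb. The dTAG parental line, NSD2-present throughout, went from 1.66 to 2.37 in pileup and from 57.6 to 77.8 Mb (n = 2). Mean pileup thus also rose without loss of NSD2. The called members and the counts are therefore also given after scaling by called length or with the pileup as a term in the model. Of 7 plasma cell marker genes, 5 entered the test and 0 were called in the KO or day 21 comparison (limma, 2 at an unadjusted p under 0.05 in each). The means of the 7 over the libraries ran from 0.127% to 6.33%, and XBP1 reached 35.4% in 1 library.

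Before any treatment, the members fell into 3 tiers of coverage that cut across the families. Over the 8 untreated NSD2-present libraries, 5 members were broadly covered. CDH16, a kidney cadherin, was at 34.7% ± 11.0, and CDH15 (M-cadherin of muscle) at 30.1% ± 7.07. CDH22 was at 25.2% ± 7.44, CDH23, part of the tip link of inner-ear hair cells, at 24.8% ± 7.53, and CDH4 (R-cadherin) at 23.4% ± 7.29. Neighbours in this order differed by less than their SD. They carried peaks in all 30 libraries, although they range from 10.8 kb (CDH16) to 688 kb (CDH4) in length.

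PCDH1 (13.7% ± 5.32), CDH24 (12.6% ± 0.843) and CDH5 (VE-cadherin of endothelium, 8.62% ± 6.75) came next. CDH1 (E-cadherin of epithelia) followed at 4.77% ± 1.55, CDH3 (P-cadherin) at 2.18% ± 2.50 and PCDH8 at 2.14% ± 4.23. CDH13 (1.11%) and PCDH12 (1.05%) were near 1%, and PCDH10 a little above them. The other 19 members were under 1% when untreated, and 9 of them, with PCDH18, CDH17 (a cadherin of intestinal epithelium) and CDH19 among these, were at 0 in all 8 libraries.

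Type II cadherins were the least covered class, with a median untreated level of 0.0424% over 13 genes. Their range still ran from 0 to the 25.2% of CDH22. The 5 type I genes had a median of 4.77%, the 10 protocadherins of 0.495%. Over all 30 libraries, CDH8 and PCDH20 were never covered, CDH11 was covered in 1 library and CDH9 in 2. A gene that is not listed can still carry the mark below the caller's threshold.

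**Figure D1:**
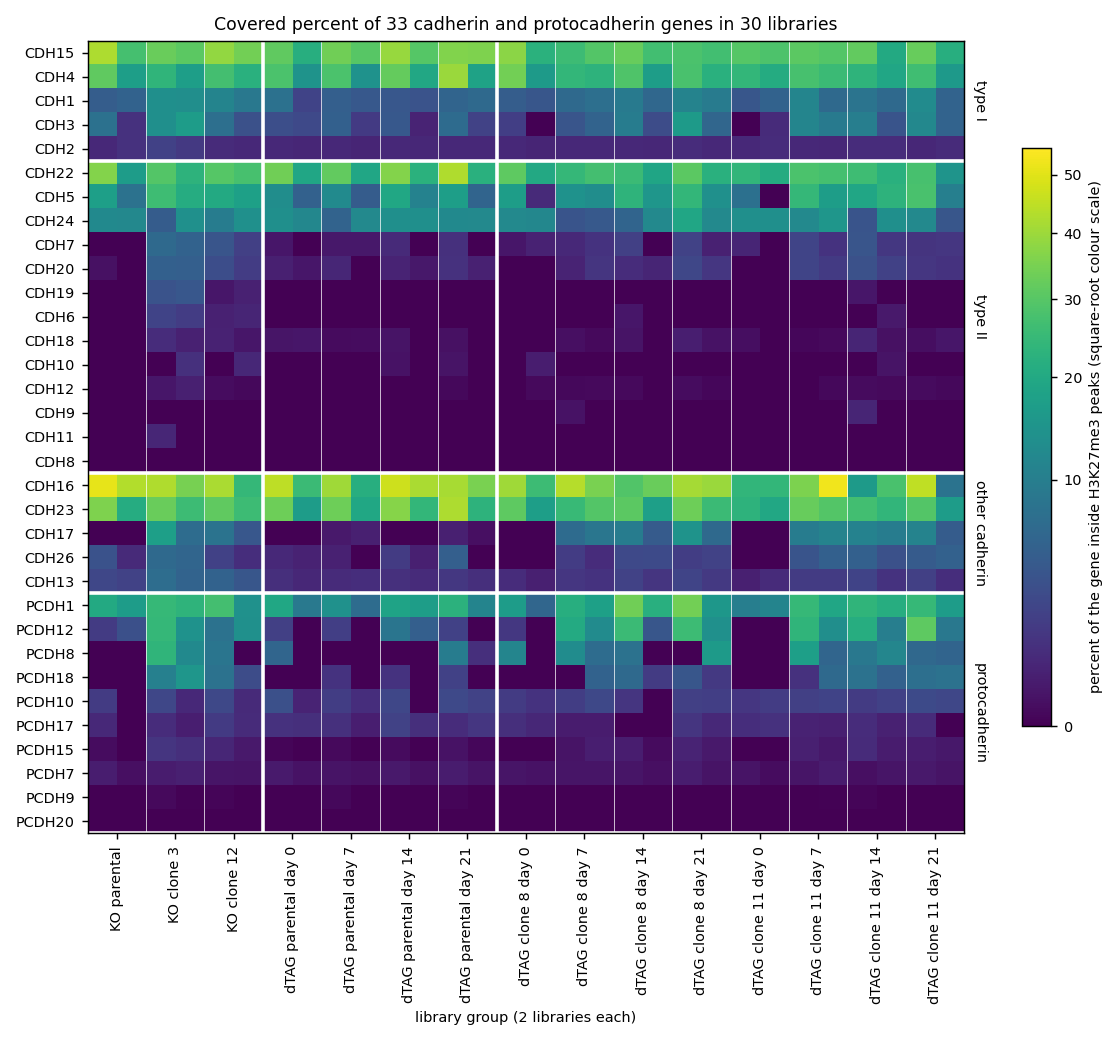
Heat map of covered percent for 33 members (rows, by class) in 30 libraries (columns, 2 per group), on a square-root colour scale. CDH15, CDH4, CDH22, CDH16 and CDH23 are covered in every library, CDH8 and PCDH20 in none, and CDH17 is at or near 0 in the parental lines and at day 0.

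Length went with coverage only loosely. The Spearman correlation of gene length with mean covered percent was -0.45 over the 33 members and -0.33 over all 19451 genes, as a description across genes, which are not independent. Members that lie side by side did not always share a level. On chromosome 16, CDH3 and CDH1 are 3.52 kb apart and had untreated levels of 2.18% ± 2.50 and 4.77% ± 1.55, a difference close to the larger SD. On chromosome 5, PCDH1 (13.7% ± 5.32) and PCDH12 (1.05%) are 65.2 kb apart. Further along chromosome 5, the type II genes CDH18, CDH12, CDH10, CDH9 and CDH6 follow one another without another member between them, and all 5 had means of at most 0.181% over the libraries.

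Where a start window was available, its coverage went with coverage of the gene body only loosely. RefSeq windows (GRCh38.p14) from 250 bases before to 50 after the annotated start matched 20 of 33 members. The 13 without a window include CDH16, CDH15, CDH22, CDH24, CDH5, CDH1, CDH3 and CDH17, so many of the well covered members are missing. The windows of CDH4, PCDH1 and PCDH17 lie inside the annotated gene. Over the 20 with a window, the number of libraries with a peak over it and the mean covered percent of the gene had a Spearman correlation of 0.351, as a description across genes that share the libraries. CDH2 had a covered percent of 0.826% over its 244 kb as a mean of all libraries, most of it at the start. Its window lay under a peak in 27 of 30 libraries, 11 of 14 NSD2-present and 16 of 16 NSD2-lost, with a median fold of 3.09 and a median -log10 q of 9.49, as the authors' lists give them. The first 2 kb of CDH2 were 87.8% ± 6.39 covered (SD, n = 30), and 1706 bases of it lay under a peak in at least 27 libraries.

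PCDH7 (29 of 30) and PCDH9 (25 of 30) also had a peak over the start in most libraries, with gene bodies at 0.195% and 0.00318%. Recurrent peaks also lay over the windows of highly covered genes, in 29 of 30 libraries for CDH4 (23.7%) and 26 of 30 for PCDH1 (18.8%), whose windows in the table lie 247160 and 8783 bases inside the annotated gene. The PCDH9 peak lay mostly before the start, and the first 2 kb of the gene were only 0.957% ± 2.56 covered. At the other end, CDH8, CDH10, CDH9, PCDH15, CDH19 and CDH26 had no peak over the window in any library. A peak over a start is common here: of 15413 genes with a window, 48.2% had one in at least 27 libraries and 18.1% in none. Among the 8760 genes with at least 20 CpG in the window these shares were 68.7% and 6.54%.

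The 250 bases before the start are shown for 3 members with a recurrent peak (CDH2, PCDH7, PCDH9) and 2 without any (CDH8, CDH10), since CpG content alone did not separate them. They are RefSeq sequence, 5′ to 3′ on the strand of the gene, at chr18:28177131-28177380 (minus, CDH2), chr4:30720119-30720368 (plus, PCDH7), chr13:67230337-67230586 (minus, PCDH9), chr16:62036439-62036688 (minus, CDH8) and chr5:24644979-24645228 (minus, CDH10). Capitals mark CG, a motif that reads the same on both strands.
CDH2: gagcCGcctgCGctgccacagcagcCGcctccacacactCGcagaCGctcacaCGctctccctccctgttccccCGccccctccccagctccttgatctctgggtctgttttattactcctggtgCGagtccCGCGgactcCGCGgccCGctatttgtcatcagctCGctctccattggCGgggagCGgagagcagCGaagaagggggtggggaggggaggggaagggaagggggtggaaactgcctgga
PCDH7: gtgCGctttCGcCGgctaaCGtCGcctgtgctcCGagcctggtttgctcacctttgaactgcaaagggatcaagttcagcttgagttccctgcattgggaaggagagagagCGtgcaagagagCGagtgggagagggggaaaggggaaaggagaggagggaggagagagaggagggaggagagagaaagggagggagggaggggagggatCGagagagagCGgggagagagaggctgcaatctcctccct
PCDH9: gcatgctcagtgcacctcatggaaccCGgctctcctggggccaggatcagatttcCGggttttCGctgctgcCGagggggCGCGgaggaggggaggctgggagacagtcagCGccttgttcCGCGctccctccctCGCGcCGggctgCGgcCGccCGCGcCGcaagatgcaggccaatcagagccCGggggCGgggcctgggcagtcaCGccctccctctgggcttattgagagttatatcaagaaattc
CDH8: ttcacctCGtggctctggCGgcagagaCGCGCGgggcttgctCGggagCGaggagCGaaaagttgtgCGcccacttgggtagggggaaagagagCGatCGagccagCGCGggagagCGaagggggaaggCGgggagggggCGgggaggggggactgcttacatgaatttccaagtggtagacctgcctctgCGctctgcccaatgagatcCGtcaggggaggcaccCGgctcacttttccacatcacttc
CDH10: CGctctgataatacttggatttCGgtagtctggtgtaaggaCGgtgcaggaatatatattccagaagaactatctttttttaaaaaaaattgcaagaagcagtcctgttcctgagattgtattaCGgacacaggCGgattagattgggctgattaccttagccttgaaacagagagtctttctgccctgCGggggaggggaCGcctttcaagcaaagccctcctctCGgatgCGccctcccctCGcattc

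The printed stretches hold 17 CG in CDH2, 10 in PCDH7, 20 in PCDH9, 19 in CDH8 and 10 in CDH10. Over the whole 300-base window, CDH8 has 24 and CDH2 has 23. At least as many were found in 33.9% and 35.8% of the 35116 windows in the table, and the count of PCDH7 (16) in 47.5%, of PCDH9 (20) in 41.2% and of CDH10 (12) in 53.1%. CDH8, never under a peak, thus had at least as many CG as CDH2, whose window was covered in 27 libraries.

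In 2 of the 20 windows a peak was listed mainly in NSD2-lost libraries. That of PCDH18 was under a peak in 3 of 14 NSD2-present and 15 of 16 NSD2-lost libraries. For CDH12, a type II cadherin with a body coverage of 0.0368% as a mean, the counts were 1 of 14 and 10 of 16. Of all genes with a window, 2.27% had a peak in at most 3 of the former and at least 10 of the latter, limits set from these members' own counts. PCDH17 went the other way, with 11 of 14 and 6 of 16, and 0.188% of all genes had at least 11 and at most 6. Its window lies 1636 bases inside the annotated gene, and those of PCDH18 and CDH12 at the gene's edge. These counts are untested descriptions, and called length differed as given above.

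**Figure D2:**
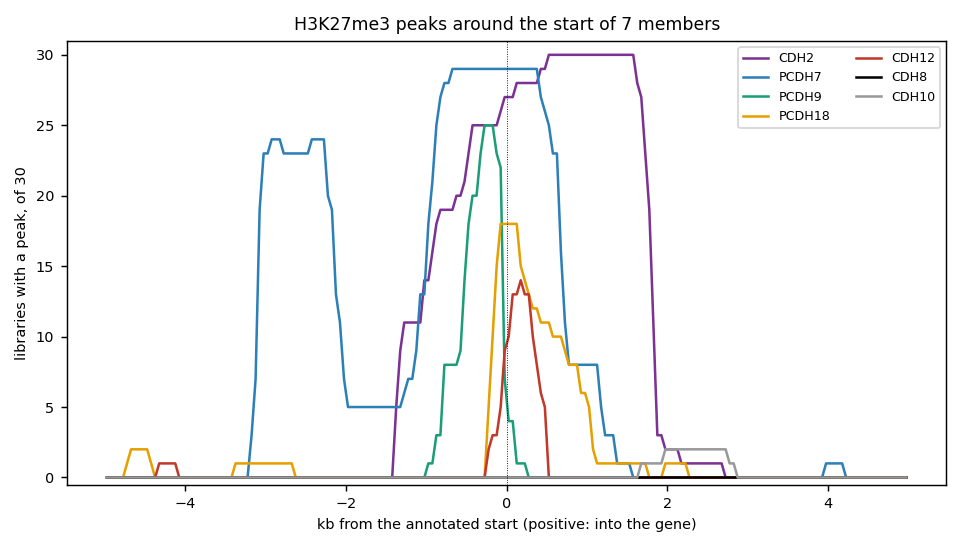
Number of libraries (of 30) with an H3K27me3 peak at each position from 5 kb before to 5 kb after the annotated start of 7 members. CDH2 and PCDH7 are covered at the start in 27 and 29 libraries, the PCDH9 peak lies before the start, and CDH8 stays at 0.

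The first comparison asks what changed in clones without NSD2. In the KO clones, 6 of the 19 members that passed the filter gained coverage and 0 lost it, beside 18.0% of all 13977 tested genes gained and 0.744% lost (limma, adjusted p under 0.05, 0 members also at an unadjusted p under 0.05 for losses). After scaling by called length the split was 3 gained and 6 lost of 18, with 10.9% and 13.5% of all genes. Called length was 67.4 Mb in the parental and 130.4 Mb in the KO libraries. Scaling therefore lowers a gene whose covered percent stayed the same, and a loss after scaling is relative to called length. The median difference over all 33 members was 0.764 percentage points, and 0.569 over all 19451 genes. No test of the family against other genes was made. The filter keeps genes with a mean of at least 1%, so members that are covered only in NSD2-lost libraries pass it only through them. Of the 6 gained, PCDH18 and CDH17 (untreated mean 0), CDH7 (0.185%) and CDH20 (0.0916%) were under that limit when untreated. Their gains are therefore not independent of the filter.

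PCDH18, a protocadherin at chr4:137518918-137532494, had the largest called change in the KO clones. It was at 0 in both parental libraries, at 10.5% and 15.2% in clone 3, and at 7.83% and 2.98% in clone 12. Every KO library lay above both parental ones. The change was 9.13 percentage points ± 1.83 (SE, limma, adjusted p = 0.0018), and 6.22 after scaling (adjusted p = 0.00555). Its neighbourhood moved less: the 100 kb on either side rose from 0 to 2.39% ± 0.926 (SD, n = 4).

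CDH17, at chr8:94127162-94217278, was also at 0 in both parental libraries. It reached 17.5% and 6.86% in clone 3 and 7.92% and 4.10% in clone 12, so the groups did not overlap. Its change was 9.08 percentage points ± 2.47 (adjusted p = 0.0145, limma), and 6.06 after scaling (adjusted p = 0.00119). Leaving out either parental library gave an adjusted p of 0.0872 (replicate 1) or 0.104 (replicate 2), while without replicate 1 of clone 3 or of clone 12 it was 0.051 or 0.052. In the KO clones the gene held 11.3 ± 4.57 separate peaks (SD, n = 4) with a median width of the widest of 1376 bp, and the 100 kb on either side went from 0.701% to 10.8%.

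CDH1, at chr16:68737292-68835537, was covered in every library of the experiment. The parental values were 4.81% and 5.43%, clone 3 had 13.7% and 13.5%, and clone 12 had 11.2% and 8.82%. All 4 KO libraries were higher than the parental ones, by 6.68 percentage points ± 1.90 on average (adjusted p = 0.0191, limma). This call did not hold after scaling (1.02, adjusted p = 0.705). It was also lost without parental replicate 1 (adjusted p = 0.119), parental replicate 2 (0.103) or replicate 1 of clone 12 (0.0607). The strongest peak in CDH1 had a median -log10 q of 66.8 in the parental libraries. There the value was 249.8 for CDH15, 60.8 for CDH22 and 18.1 for CDH23. The number of peaks over CDH1 went from 7 in each parental library to 16.3 ± 3.5 in the KO clones.

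CDH7, CDH20 and CDH13 gained smaller shares of long genes. CDH7 (type II) was at 0 in both parental libraries, at 6.42% and 5.39% in clone 3 and at 3.85% and 1.98% in clone 12. Its change of 4.41 percentage points ± 0.696 (adjusted p = 0.000295, limma) was 3.01 after scaling (adjusted p = 0.000558). CDH20, its type II neighbour on chromosome 18, went from 0.116% and 0 to 5.21% and 5.04% in clone 3 and to 3.12% and 1.72% in clone 12. That is a change of 3.71 percentage points ± 0.441 (adjusted p = 2.9e-05, limma), and the gene fell under the filter after scaling.

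CDH13 (T-cadherin, which is anchored by a lipid and lacks a cytoplasmic tail) spans 1174 kb. It had 2.51% and 2.13% in the parental line, 7.08% and 5.53% in clone 3, and 5.38% and 3.93% in clone 12. The change of 3.16 percentage points ± 0.503 (adjusted p = 0.000315, limma) was 0.621 after scaling (adjusted p = 0.209). For all of CDH7, CDH20 and CDH13, each KO library exceeded both parental ones.

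Among members that were not called, PCDH12 (2.46% to 15.1%, adjusted p = 0.17), PCDH8 (0 to 11.1%, adjusted p = 0.111) and CDH5 (12.7% to 21.3%, adjusted p = 0.354) had the widest differences upward, followed by CDH3 (4.38% to 10.3%, adjusted p = 0.191). CDH16 stood apart. Its parental libraries had 42.9% and 50.9% and its 4 KO libraries 24.5% to 42.7%, with no overlap, as for 4.26% of tested genes. The difference of -10.9 percentage points was not called (adjusted p = 0.507, limma), and was -40.3 after scaling (adjusted p = 0.00213). CDH23, CDH15, CDH22, CDH4 and PCDH1 were the other members lost after scaling, though the unscaled means of these 5 differed by at most 3.81 percentage points.

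By ranges alone, 13 of 33 members had every KO library above both parental libraries, 8 of them among the 19 tested, where the background share was 28.6%. The 5 outside the filter were CDH19, CDH6, CDH18, CDH12 and PCDH15, all at or near 0 in the parental line. CDH19 reached 3.57% and 4.09% in clone 3 and 0.201% and 0.475% in clone 12. CDH6 reached 1.74% and 2.21% in clone 3, and 0.481% and 0.570% in clone 12. Without the filter, 12 of 33 members were called gained, these 5 and CDH2 in addition to the 6 above. The share of all genes without the filter is not given here, so this count cannot be set against other genes. In CDH2 only clone 3 lay above the parental line, and clone 12 lay within its range (values below).

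The KO clones gave different numbers of calls. Clone 3 alone had 9 members called against the parental line and clone 12 had 3 (CDH13, CDH20 and CDH7), beside 21.9% and 4.46% of all tested genes gained and 0.673% and 0.193% lost. A direct contrast of the clones, added after the values had been seen, called CDH20 (2.71 percentage points higher in clone 3, adjusted p = 0.00507), CDH7 (2.99, adjusted p = 0.0451) and CDH26 (4.65, adjusted p = 0.0296) by limma, beside 3.86% of all tested genes higher and 0.093% lower. The call of CDH26 was lost whichever of the 4 clone libraries was left out (adjusted p = 0.0536 to 0.259). That of CDH7 was lost without replicate 1 of clone 3 (0.326) or replicate 2 of clone 12 (2.05, adjusted p = 0.466 by limma), and that of CDH20 without replicate 2 of clone 12 (2.01, adjusted p = 0.115). The called length was 152.3 Mb in clone 3 and 108.4 Mb in clone 12, and after scaling 0 members were called, beside 0.244% of all genes higher and 0.0359% lower. Against the parental line, where these calls were all gains, scaled values gave 3 gained and 6 lost in clone 3 (beside 10.6% and 12.6% of all genes) and 2 gained and 3 lost in clone 12 (6.5% and 4.94%). A fit to the 6 libraries of this experiment alone, with fewer residual degrees of freedom, called 2 members gained. The share of all genes in that fit is not given here.

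The second comparison follows acute loss of NSD2 in the dTAG clones. Against day 0, day 7 gave 5 members gained of 19 tested, beside 21.1% of all genes. Day 14 gave 7 (22.0%) and day 21 gave 8 (26.5%). Of the 8, CDH17 and PCDH18 (untreated mean 0), CDH20 (0.0916%) and CDH26 (0.692%) were under the 1% limit of the filter when untreated. They entered the test through libraries where they were higher, so their gains are not independent of the filter. At days 7, 14 and 21, 0 members lost coverage (0 also at an unadjusted p under 0.05), beside 0.243%, 0.63% and 0.494% of all genes. After scaling by called length, day 7 had 4 gained and 6 lost of 18, beside 14.2% and 29.4% of all genes. Day 14 had 4 and 7, beside 15.6% and 32.4%, and day 21 had 5 and 6, beside 15.6% and 32.0%. With the background pileup in the model, 4 members were gained at day 21, namely PCDH12 (15.8, adjusted p = 0.0435, limma), CDH17 (7.55, adjusted p = 0.0223), CDH26 (2.39, adjusted p = 0.0386) and CDH20 (1.26, adjusted p = 0.0263). The calls of CDH3 (5.87, adjusted p = 0.0561), PCDH18 (3.85, adjusted p = 0.104), CDH1 (3.86, adjusted p = 0.104) and CDH5 (4.58, adjusted p = 0.314) ended, and CDH4, CDH22 and CDH23 were lost. The same model kept all 6 gains of the KO clones and called CDH4 lost there (-7.38, adjusted p = 0.0491). Shares of all genes called in this model are not given here, so its counts cannot be set against other genes. Its median change over all tested genes was 0.604 percentage points in the KO clones and 0.537 at day 21. The 3 contrasts share the day 0 libraries, so they are not independent of one another. Over all 33 members the median difference at day 21 was 0.183 percentage points, and 0.743 over all genes.

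PCDH12 (an endothelial protocadherin, chr5:141943581-141958202) changed the most. At day 0 it was at 1.48% and 0 in clone 8 and at 0 in both libraries of clone 11. At day 21 clone 8 had 25.9% and 14.0%, and clone 11 had 31.2% and 8.77%. The change of 19.6 percentage points ± 4.83 (adjusted p = 0.00561, limma) was 14.1 after scaling (adjusted p = 0.00147). All 12 treated libraries, from 3.95% to 31.2%, were above all 4 at day 0, and the first called day was day 7 (17.2, adjusted p = 0.017). The parental line reached 8.23% at day 14, so the treated and parental ranges overlapped.

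CDH17 repeated its KO pattern, with 0 in all 4 libraries at day 0. At day 21 it was at 14.5% and 6.44% in clone 8 and at 11.0% and 4.70% in clone 11, and by day 7 already at 6.65%, 8.51%, 9.63% and 11.1%. The change at day 21 was 9.17 percentage points ± 2.02 (adjusted p = 0.00253, limma) and 6.74 after scaling (adjusted p = 3.4e-05). The 100 kb on either side went from 0.779% ± 0.546 to 11.9% ± 3.97 (SD, n = 4), so the gain was not limited to the gene.

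CDH17 was the single member for which every NSD2-lost library (4.10% to 17.5%) exceeded every NSD2-present one (0 to 0.438%). This held for 8.21% of all tested genes. The deepest NSD2-present library by pileup (3.26, parental line at day 21, replicate 1) had 0.432% of CDH17 covered. The shallowest NSD2-lost library (1.61, clone 11 at day 21, replicate 2) had 4.70%. In that same pair, PCDH12 was at 2.09% and 8.77%, PCDH18 at 2.07% and 7.76%, CDH1 at 5.70% and 5.57%, and CDH23 at 42.4% and 16.9%. Of the other members called at day 21, CDH5 (17.2% and 10.3%) and CDH3 (6.65% and 5.57%) were lower in the NSD2-lost library. CDH26 (4.98% and 5.32%) and CDH20 (1.14% and 1.20%) were nearly level.

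**Figure D3:**
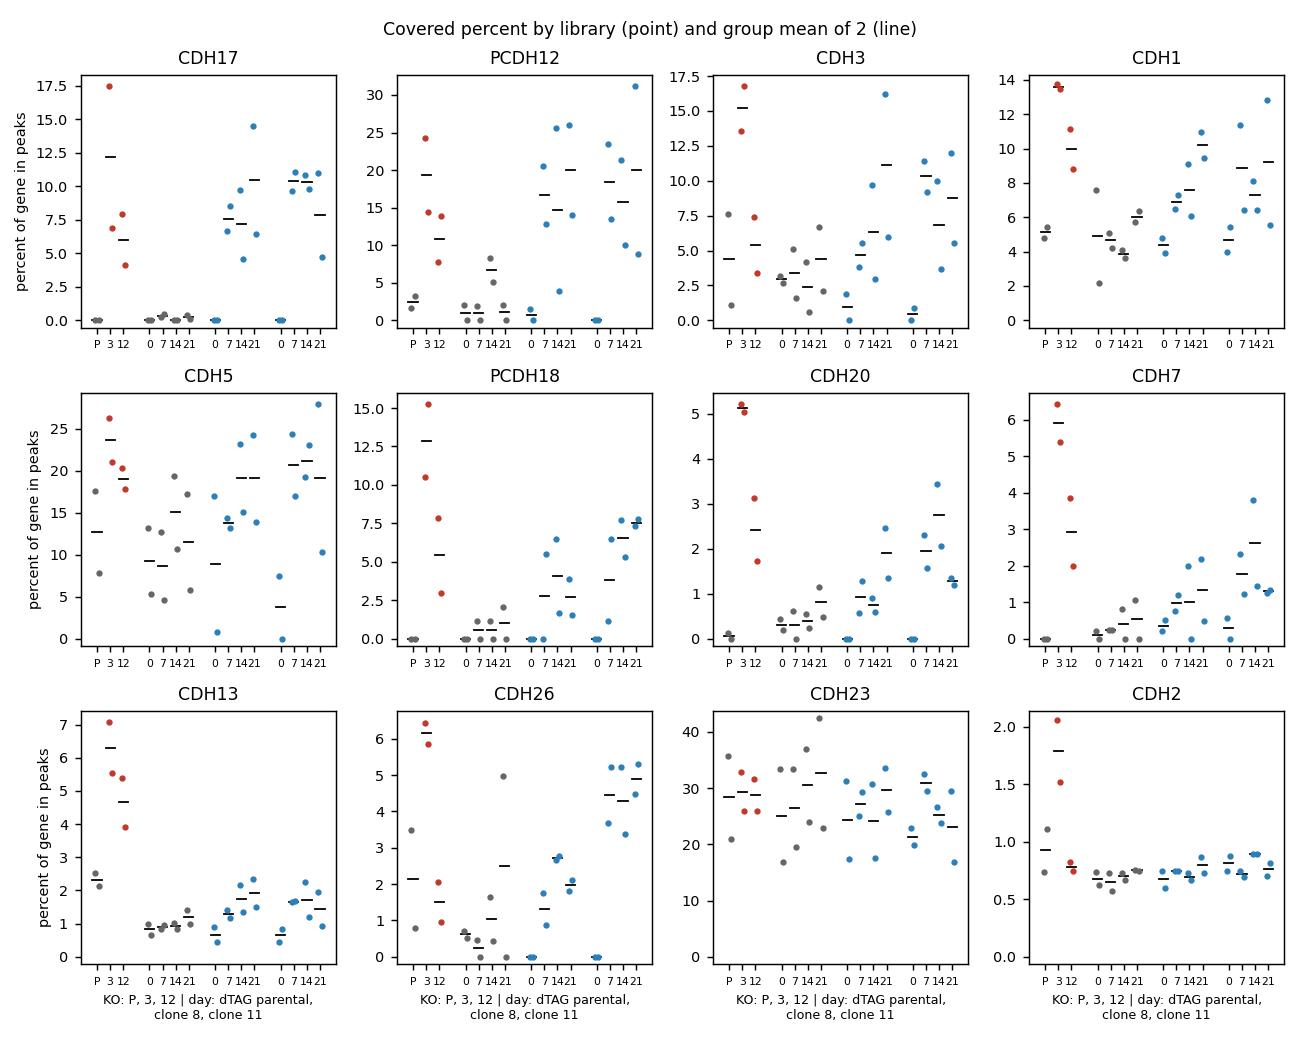
Covered percent (vertical axis) of 12 members in each library (points) with group means (lines), for the KO experiment (P parental, clones 3 and 12) and for days 0 to 21 in the dTAG parental line, clone 8 and clone 11. Grey points are parental lines, and CDH17 shows 0 to 0.438% there against 4.10% or more in the KO clones.

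CDH3 and CDH1, neighbours on chromosome 16, both gained at day 21. CDH3 had 1.92% and 0 in clone 8 and 0 and 0.858% in clone 11 at day 0. At day 21 it had 16.2% and 6.00% in clone 8 and 12.0% and 5.57% in clone 11, all above day 0. The change was 9.24 percentage points ± 2.35 (adjusted p = 0.0069, limma) and 6.25 after scaling (adjusted p = 0.00547), and the pileup model ended the call (5.87, given above). Without replicate 1 of clone 8 at day 21 it was 6.69 (adjusted p = 0.0528).

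CDH1 went from 4.81% and 3.93% in clone 8 and 3.98% and 5.41% in clone 11 to 11.0% and 9.46%, and 12.8% and 5.57%. All 4 libraries at day 21 were above all 4 at day 0, the lowest (5.57%) only just so, and the change was 5.18 percentage points ± 1.55 (adjusted p = 0.0189, limma). After scaling it was -1.22 (adjusted p = 0.518), so the direction depended on the called length. The call was lost without replicate 2 of clone 8 (adjusted p = 0.0632) or replicate 1 of clone 11 (0.0653) at day 0, and without replicate 1 of clone 8 (0.0716) or of clone 11 (3.36, adjusted p = 0.13) at day 21. The change was 3.86 with the pileup in the model, also not called.

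CDH5, which lies on the same arm, had 17.0% and 0.790% in clone 8 and 7.49% and 0 in clone 11 at day 0. Day 21 brought 24.2% and 13.9% in clone 8 and 27.9% and 10.3% in clone 11, overlapping day 0 through 1 library of clone 8. The change was 12.8 percentage points ± 4.53 (adjusted p = 0.045, limma) and 4.65 after scaling (adjusted p = 0.324). The call was lost without replicate 1 (adjusted p = 0.191) of clone 8 at day 21, replicate 2 (0.238) of clone 8 at day 0, replicate 1 (0.0511) or 2 (0.154) of clone 11 at day 0, or replicate 1 of clone 11 at day 21 (8.38, adjusted p = 0.249).

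PCDH18 was at 0 in all 4 libraries at day 0. At day 21 it stood at 3.90% and 1.52% in clone 8 and at 7.34% and 7.76% in clone 11, again without overlap. The change of 5.13 percentage points ± 1.49 (adjusted p = 0.0158, limma) was 4.32 after scaling (adjusted p = 0.00749) but not called with the pileup in the model, and without replicate 1 of clone 8 at day 21 it was 4.53 (adjusted p = 0.0741). Unlike CDH17, its surroundings stayed at the same level, 0.397% ± 0.135 at day 0 and 0.392% ± 0.363 at day 21 (SD, n = 4).

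CDH26 and CDH20 were the remaining gains at day 21. CDH26 went from 0 in all 4 libraries to 3.43% ± 1.74 (SD, n = 4), a change of 3.43 percentage points ± 0.817 (adjusted p = 0.00444, limma) and of 2.96 after scaling (adjusted p = 0.00726). CDH20 went from 0 in all 4 to 1.59% ± 0.586, with a standard error of 0.36 (adjusted p = 0.00311, limma). CDH7 (0.994, adjusted p = 0.227) and CDH13 (1.03, adjusted p = 0.0738), both called in the KO clones, were not called here, nor after scaling (0.368, adjusted p = 0.494, and 0.0698, adjusted p = 0.866), where CDH20 fell under the filter. The added contrast of the KO change with the day 21 change called 0 members (limma, 3 at an unadjusted p under 0.05: CDH13, CDH20 and CDH7), beside 0.465% of all genes higher and 0.107% lower in the KO.

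**Figure D4:**
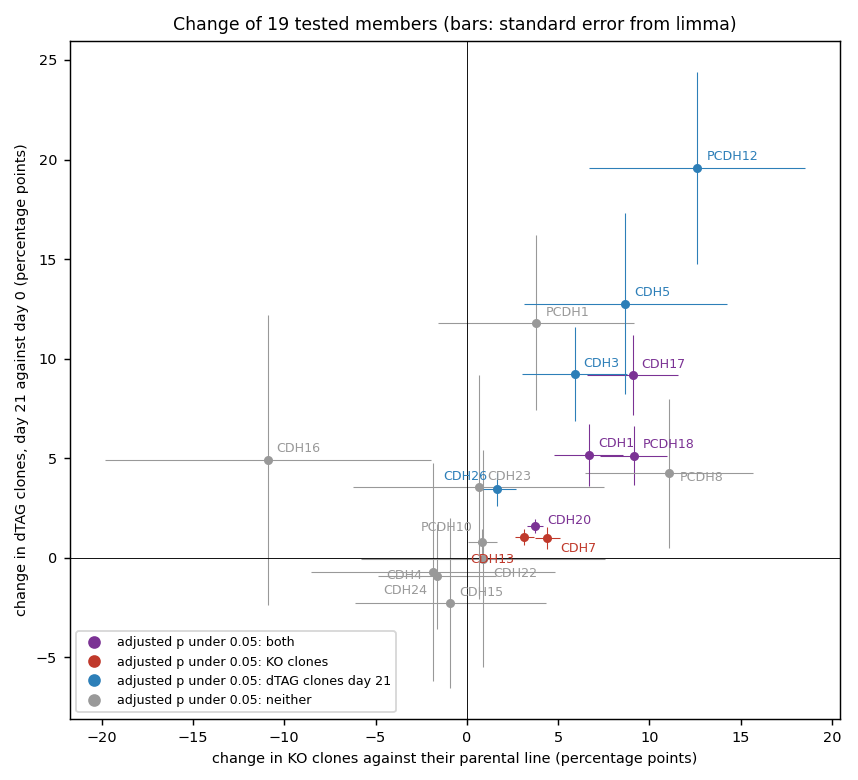
Change in the KO clones (horizontal) against change at day 21 in the dTAG clones (vertical), in percentage points with limma standard errors, for the 19 tested members. CDH17, CDH1, PCDH18 and CDH20 are called in both, PCDH12 has the largest change at day 21 (19.6), and CDH16 lies at -10.9 in the KO.

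CDH2 did not pass the filter, and its values were close in most groups. It had 0.737% and 1.12% in the KO parental line, 2.07% and 1.52% in clone 3, and 0.820% and 0.749% in clone 12. In the dTAG clones it had 0.749% and 0.600% (clone 8) and 0.749% and 0.877% (clone 11) at day 0, and 0.867% and 0.726%, and 0.699% and 0.820%, at day 21. Clone 3 was above the other groups listed here. Clone 12 overlapped its parental line, and the dTAG clones at day 21 overlapped day 0. In the dTAG parental line, both day 21 libraries lay above both day 0 libraries, beside 18.5% of all tested genes. In the dTAG clones, CDH2 held 1 peak in each day 0 library and 1.5 ± 0.577 at day 21, the one at its start among them.

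In the unscaled fit without the pileup term, the highly covered genes changed little against their spread at day 21. At day 21, CDH23 moved from 22.8% ± 6.05 to 26.4% ± 7.11 and CDH15 from 29.5% ± 6.22 to 27.2% ± 4.43 (SD, n = 4). Scaled by called length they were lower, by -21.6 and -33.0 percentage points (adjusted p = 3e-06 and 9.5e-05, limma), as were CDH16, CDH22, CDH4 and CDH24. In CDH23, CDH15 and CDH22, replicate 1 exceeded replicate 2 in 14 of 15 groups, and in CDH4 in 15 of 15. Replicate 1 also had more peaks than replicate 2 in 15 of 15 groups and a higher pileup in 12 of 15. The SDs given here include this difference, and its part in their level was not tested on its own. With the pileup in the model, the standard error of CDH4 at day 21 was 2.28, beside 5.46 without it. CDH4 (-11.8, adjusted p = 0.00201, limma), CDH22 (-10.9, adjusted p = 0.00583) and CDH23 (-7.79, adjusted p = 0.0252) were then called lost. CDH15 (-8.54, adjusted p = 0.0801) and CDH16 (-4.75, adjusted p = 0.677) were not.

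Each dTAG clone alone gave fewer calls at day 21. Clone 8 had 3 members called (CDH17, CDH3 and CDH20) and clone 11 had 2 (PCDH18 and CDH26), beside 17.0% and 8.48% of all genes gained and 0.243% and 0.093% lost. The 3 and 2 members called were all gains. After scaling, clone 8 had 2 gained and 5 lost (beside 10.3% and 18.9% of all genes) and clone 11 had 4 gained and 5 lost (9.55% and 16.1%). The added contrast of the clones' day 21 changes called 0 members (limma, 0 also at an unadjusted p under 0.05), beside 0.0143% of all genes, so the differing names do not show that the clones differed. By ranges, day 7 had 11 of 33 members above day 0 in every library (10 of the 19 tested, beside 29.8% of all genes). Day 14 had 10 (9 tested, beside 24.6%), and day 21 had 11 (9 tested, beside 27.6%).

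The parental line under dTAGV-1 serves as the control for the compound and for time in culture. At days 7, 14 and 21, 0 of 19 members were called in either direction (limma, 0 also at an unadjusted p under 0.05), beside 0%, 0% and 0.0143% of all genes gained. These contrasts set 2 libraries against 2, and those of the clones 4 against 4. CDH17 in the parental line was at 0 in both libraries of day 0 and of day 14. Day 7 had 0.243% and 0.438%, and day 21 had 0.432% and 0.0977%. By ranges, 5 of 33 members (3 of 19 tested) were above day 0 at day 21 in both libraries, beside 18.5% of all genes.

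The difference between the clones' and the parental line's day 21 changes was itself tested. It called 0 of 19 members, beside 1.93% of all genes gained and 0.0859% lost (limma, 2 at an unadjusted p under 0.05). Those 2 were PCDH12, with a difference of 19.5 percentage points ± 8.36 (adjusted p = 0.242), and CDH17, with 8.90 ± 3.5 (adjusted p = 0.198). After scaling by called length, 1 member was gained and 4 lost, beside 4.79% and 5.71% of all genes. The unscaled gains at day 21 were thus tested against day 0, and not shown by the unscaled test to exceed those of the parental line.

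DNA beside the genes moved as well. The 100 kb on either side were more covered in the KO clones for 28 of 33 members and at day 21 for 26 of 33. As means over the 33, these flanks changed by 1.87 and 2.50 percentage points and the genes by 2.22 and 2.72. The gene changed more than its flanks in 16 members in the KO and in 13 at day 21. Flanks can hold another member: CDH3 and CDH1 lie 3.52 kb apart, and PCDH1 and PCDH12 65.2 kb. For these genes the comparison is partly of a member with its neighbour. PCDH12 and PCDH18 exceeded their flanks in both, whereas CDH17 changed less than its flanks. CDH8 and PCDH20 had flanks at 0 in the KO parental line and at both days of the dTAG clones, and at 0.0968% and 0.114% in the KO clones.

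**Figure D5:**
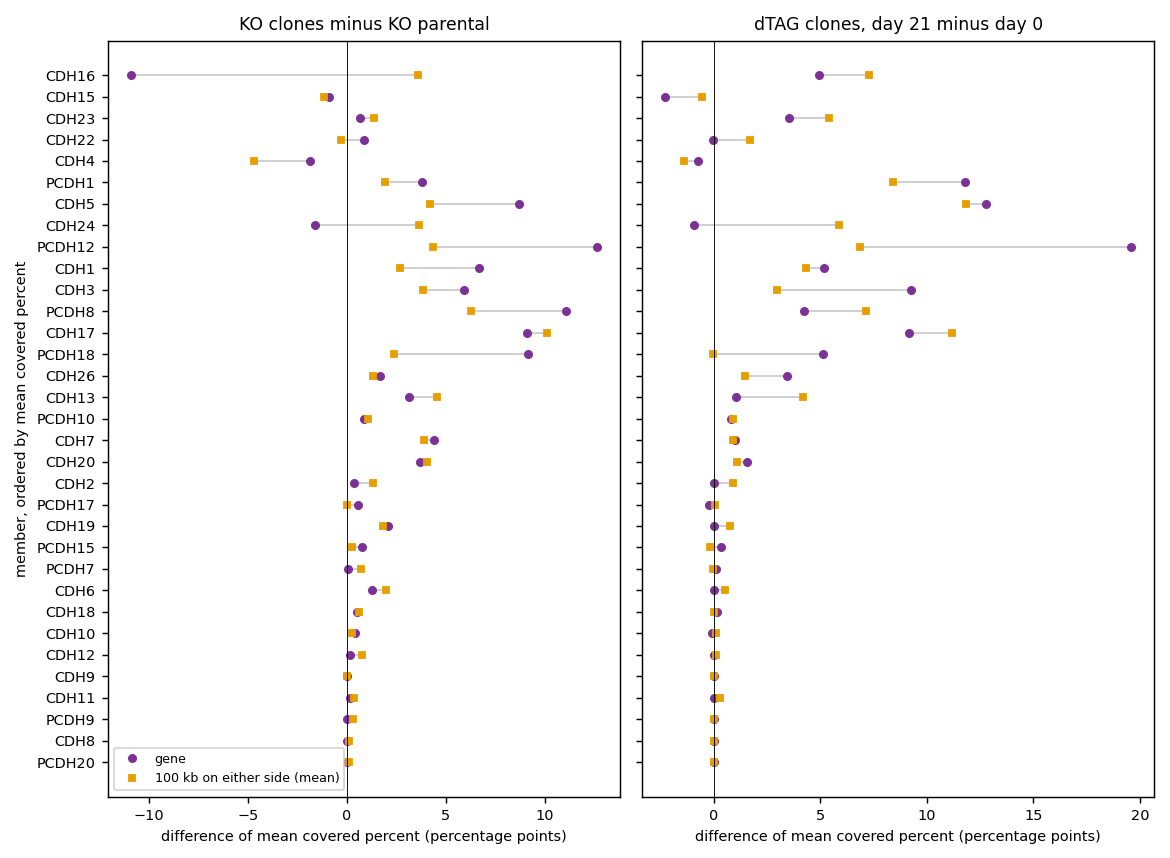
Difference in mean covered percent (percentage points) of each of 33 members (circles) and of the 100 kb on either side (squares), for the KO clones (left) and day 21 (right). Flanks lie above 0 in 28 and 26 members, and the widest gap between gene and flanks is that of CDH16 in the KO, where the gene lies at -10.9.

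Other genes of cadherin adhesion were counted from lists chosen with earlier results of these data known. Of 18 more distant genes (FAT, DCHS, CELSR, CLSTN and CDHR cadherins, and RET), 16 were tested, of which 5 gained in the KO clones (18.0% of all genes did) and 7 at day 21 (26.5%). The largest called gains were CDHR4 at day 21 (8.62% ± 8.26 to 28.2% ± 7.83, SD, n = 4, adjusted p = 0.0271, limma) and DCHS1, a cadherin of planar cell polarity (5.09% ± 4.94 to 22.4% ± 8.34, adjusted p = 0.00953). In the KO clones they were CELSR2, another planar polarity cadherin (7.39% to 18.2% ± 2.12, adjusted p = 0.0485), and CDHR3 (3.83% to 11.6% ± 5.64, adjusted p = 0.0478). RET had the widest KO difference of the list, downward (28.2% to 15.9% ± 6.16), and was not called (adjusted p = 0.379, limma). Over the 16 tested, the median change at day 21 was 4.74 percentage points, and 2.05 over all tested genes, and after scaling 4 were gained and 5 lost. In the KO clones scaling gave 3 gained and 5 lost. Scaled shares of all genes are those given with the counts of members above.

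Of 15 catenin and plaque genes, 8 were tested and 2 gained in the KO clones (beside the same 18.0%), CTNND2 (a delta-catenin, 0.459% to 4.85% ± 1.80, adjusted p = 8.6e-05, limma) and VCL (vinculin, 0.475% to 5.76% ± 4.09, adjusted p = 0.000495). At day 21 PKP1 (a plakophilin, 14.7% ± 9.49 to 35.7% ± 5.32) was called as well, which made 3 of 8, beside 26.5% of all genes. The single desmosomal cadherin tested of 7, DSG3, gained in the KO clones (0 to 6.15% ± 5.84, adjusted p = 0.0237). Of 53 clustered protocadherins, whose annotated spans overlap, 3 passed the filter and 0 were called, as were 0 of 5 tested repressors of CDH1 and 0 of 3 proteases and partners (limma, 0 also at an unadjusted p under 0.05). Lost calls numbered 0 in each of these lists before scaling. After scaling, the catenin and plaque genes had 2 gained and 1 lost in the KO clones and 2 gained and 3 lost at day 21. The clustered protocadherins had 3 of 3 lost in the KO clones and 0 at day 21. Repressors of CDH1 (6 tested) and proteases and partners (3 tested) each had 0 gained, with 1 lost in the KO clones and 2 at day 21, and DSG3 was still gained in the KO clones.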

How the data were processed

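H3K27me3 was measured by CUT&Tag in 30 libraries, 2 per group. The submitters' processing notes name MACS3 3.0.2, fastp 0.24.0, deepTools 3.5.1, Picard, SAMtools, ChIPseeker 1.42.1, Bowtie2, DESeq2 and hg38, with neither role nor sequence of steps. The deposited lists are broad peaks, 1 list per library. Their score is 10 times the -log10 q, per the deposited values, and each peak has a fold (a ratio over the caller's background) and, on the -log10 scale, its p and q as the authors' caller gave them. The sources used here state no options of the caller, and depth is known here only as a background pileup. It was solved from fold and p of the shortest 2% of peaks, assuming a pseudocount of 1, and could not be checked against reads.

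Peaks were merged within each library, and the percent of each gene (RefSeq, GRCh38.p14, at least 1 kb) inside them was computed in Python 3.11.15 with numpy 2.4.6 and pandas 2.3.3. Genes with a mean between 1% and 99% (13977 of 19451, 19 of 33 members) were tested in R 4.3.3 with limma 3.58.1. The model had a mean for each group, 15 residual degrees of freedom, a trend in the variance and Benjamini-Hochberg adjustment, and called at an adjusted p under 0.05. Every adjusted p given is from limma. Day 0 libraries are shared by 3 contrasts. Values scaled by called length were divided by the library's called length and multiplied by the mean called length. A gene with an unchanged covered percent is therefore lower after scaling wherever called length is greater. The code was tested on simulated data. Members and lists were chosen with earlier results of these data known. Members called in the KO or at day 21 were named with statistics, as were CDH1 and CDH2, and up to 4 called genes of each other list by size of change.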

Additional observations from a re-analysis of the deposited data

Results flagged for a closer look

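In groups of 4 libraries, 55 combinations of 11 members and 5 groups were examined for 1 library far from the other 3, and 3 were found. Chance flags about 1 in 20. CDH2 was at 0.698% in replicate 2 of clone 11 at day 7, where the other 3 were between 0.743% and 0.749%. CDH20 was at 2.46% in replicate 1 of clone 8 at day 21, where the others were between 1.20% and 1.35%. PCDH12 was at 1.48% in replicate 1 of clone 8 at day 0, where the others were at 0.

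KO clones 3 and 12 differed by limma in 3 members. CDH20 was 2.71 percentage points higher in clone 3, CDH7 2.99 and CDH26 4.65 (adjusted p = 0.00507, 0.0451 and 0.0296). Leaving out 1 library ended the call of CDH26 in 4 of 4 cases, of CDH7 in 2 and of CDH20 in 1. Called length was 152.3 Mb in clone 3 and 108.4 Mb in clone 12. After scaling by it, CDH26 was 2.51 higher (adjusted p = 0.916) and CDH7 1.16 (adjusted p = 1), and CDH20 fell under the filter.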

How the results depend on the processing

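In the order KO, day 7, day 14 and day 21, the 6, 5, 7 and 8 gains became 3, 4, 4 and 5 after scaling by called length, and the 0 losses became 6, 6, 7 and 6. With the background pileup in the model, gains were 6, 2, 3 and 4 and losses 1, 1, 3 and 3. With lists shortened to equal length, which left 10 members tested, gains were 1, 0, 0 and 1 and losses 0, 3, 3 and 3. With a -log10 q of at least 5 (9 tested) or a fold of at least 4 (1 tested), 0 were called in these comparisons and in each clone. Joining gaps up to 3 kb left 2 gains at day 7, and without the filter the KO gave 12. A fit to only the groups compared gave 2 gains in the KO, 4 at day 14 and 4 at day 21. The interaction gave 1 gain and 4 losses after scaling. Shares of all genes called were given above for the main and the scaled counts only.

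For KO clone 3 (9 calls, all gains), shortened lists gave 2 (1 gained, 1 lost), no filter 15 and only the groups compared 2. For KO clone 12 (3 gains), scaling gave 5 calls (2 gained, 3 lost), and shortened lists, joined gaps and only the groups compared gave 0. For clone 8 at day 21 (3 gains), scaling gave 7 calls (2 gained, 5 lost), joined gaps 1 and only the groups compared 0. For clone 11 (2 gains), scaling gave 9 calls (4 gained, 5 lost), extending genes by 5 kb 1, and joined gaps and only the groups compared 0. Replicate numbers are shared across groups but no label ties them to a culture or day. With them as a replicate block, gains were 6, 7, 10 and 10, and calls in clones 8 and 11 were 6 and 6. Same-numbered deviations correlated at 0.0335 to 0.558 (median 0.187) over 105 pairs of groups, above 0.1 in 84.

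Leaving out 1 library gave 2 to 5 gains at day 7 (2 without clone 8 day 0 replicate 2), 3 to 9 at day 14 (3 without replicate 1 of clone 8 or 11 at day 14) and 4 to 10 at day 21 (4 without clone 8 day 21 replicate 1). It gave 4 to 8 calls for KO clone 3 (4 without its replicate 1), 0 to 3 for clone 12 (0 without either parental library or its replicate 1), and 0 to 5 for clones 8 and 11 at day 21 (0 without any library but their day 21 replicate 2).

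CDH1 reversed in the KO with shortened lists (-0.35, adjusted p = 0.874, limma) and at a -log10 q of at least 5 (-0.377, adjusted p = 1), and at day 21 after scaling (-1.22, adjusted p = 0.518). The cause was not tested. CDH7, CDH13, CDH20 and PCDH18 in the KO, and CDH17, CDH20, CDH26 and PCDH12 at day 21, kept their calls whichever single library was left out. Windows of 250 kb beside the genes changed by 1.53 (KO) and 2.20 (day 21) percentage points. Depth is known only through the pileup, and a 0 means that no peak was listed, not absence of the mark.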

Other observations

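The members never listed in any library, CDH8 and PCDH20, differ in length (389 kb and 6.17 kb). The share of a gene covered in at least 1 of 30 libraries was 71.5% for PCDH12, of which 59.0% of the gene was listed in NSD2-lost libraries alone. For CDH1 these values were 45.5% and 30.5%, for CDH3 51.4% and 35.4%, and for CDH23 69.7% and 7.78%. There are 16 NSD2-lost libraries and 14 NSD2-present ones, and the lost ones have the greater called length, so these shares are descriptions.

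Members outside the filter ranged from CDH2 and PCDH7, covered in all 30 libraries, and PCDH17 (26), through CDH18 and PCDH15 (22 each) and CDH12 (16), to PCDH9 (7), CDH10 and CDH6 (6 each) and CDH19 (5). CDH19 and CDH6 were highest in KO clone 3 (3.83% ± 0.369 and 1.97% ± 0.329, SD, n = 2), and in KO clone 12 they were at 0.338% ± 0.194 and 0.525% ± 0.0632.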
